A study of Mus musculus with 15 samples.

Results

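Germ cells of wild-type mice were compared between 3 and 7 days after birth (dpp). The comparison rests on all 5 wild-type libraries of those ages among the 15 libraries of the study, namely libraries 13, 14 and 15 at 3 dpp and libraries 2 and 3 at 7 dpp. The cells had been sorted from enzyme-digested testes by green fluorescence. In these mice GFP is driven by the Pou5f1 promoter, so the sort selects on the promoter of a gene whose transcript is itself measured. Every mouse of the study carried this Pou5f1-Gfp transgene, wild type and mutant alike. Libraries labelled Akt1s1 null at 3 dpp (16 and 18) and 7 dpp (4, 5 and 6) are shown for context. So are those of wild-type adults of 2 to 3 months (7 and 9). These libraries and the adult libraries labelled null (10, 11 and 12) also entered the fit of the wild-type comparison. They thus help to set the spread behind its SEs and p-values. Whether each library is 1 animal or a pool is not stated in the labels, and p-values therefore measure how far these libraries scatter, a scatter that may be technical. Each deposited file holds 27128 gene names with a signal, a relative transcript level like TPM. Of these, 15576 genes that reached a signal of 1 in 2 or more of the 5 libraries were tested.

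In the newborn mouse testis, prospermatogonia resume division and give rise to spermatogonia. Some become spermatogonial stem cells, which depend on GDNF from Sertoli cells acting through the receptors GFRA1 and RET. Others become progenitors and then differentiating spermatogonia, a step that responds to retinoic acid and is marked by KIT and STRA8.

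The libraries had the transcripts of germ cells. Ddx4, which encodes a germ-cell RNA helicase, had a signal of 510, 555 and 581 at 3 dpp and 509 and 503 at 7 dpp. Its change was not called (log2 difference -0.11 ± 0.09 (SE), limma adjusted p = 0.402), nor was that of Dazl, an RNA-binding protein of germ cells (0.11 ± 0.11, adjusted p = 0.504). Transcripts of Sertoli cells, the somatic cells of the tubule, were also present at both ages. The summed signal of 20 Sertoli markers was 1302 to 1892 at 3 dpp and 1266 to 1835 at 7 dpp, and 1 of the 20 rose and 1 fell. Library 13 stood apart in Leydig cell and stromal transcripts. Its summed signal was 738 over 8 Leydig markers against 132 to 162 in the other 4 libraries, and 190.0 over 9 stromal markers against 63.0 to 85.1. Insl3 was 223 in library 13 and 3.94 to 11.9 in the others, and Hsd3b1 was 149 against 0.06 to 1.82. The summed signal of 7 peritubular myoid markers went from 54.5 to 85.3 at 3 dpp to 29.3 to 35.8 at 7 dpp, with 4 of 7 lower. The lower myoid count was 1 without library 3 and 2 without library 2, 13 or 14. The summed signal of 6 endothelial markers went from 49.4 to 65.4 to 36.0 to 47.9, with 3 of 6 lower (0 without library 2 and 1 without library 13 or 14), and that of 7 macrophage markers from 54.3 to 76.3 to 17.1 to 17.9. Among the macrophage markers Fcer1g and Mrc1 were lower, while Csf1r, Adgre1, Ptprc, Cd74 and Tyrobp were below the signal filter at both ages. The part of these cells in the results below was not tested. In bulk samples, fewer cells of a type and less RNA per cell cannot be told apart.

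Between 3 and 7 dpp, 1468 genes rose and 1957 fell in wild type, which was 9.42% and 12.6% of the genes tested and 22.0% together (limma adjusted p under 0.05). The changes downward were the larger ones. At least 2-fold changes were called for 757 lower genes (4.86%) and 211 higher genes (1.35%), and the median log2 change over all genes was -0.007. Lack of overlap between the 3 dpp and 7 dpp libraries was common. It was seen for 22.4% of all genes tested in the higher direction and 26.0% in the lower. Libraries of the same age correlated across the 15576 genes at r = 0.9813 to 0.9866 at 3 dpp and 0.9832 at 7 dpp, and libraries of different ages at 0.9468 to 0.9713. Library 15 was the 3 dpp library nearest to those of 7 dpp (r = 0.966 and 0.9713), and library 14 the farthest (0.9468 and 0.9552). Without single libraries the count of called genes was 1588 (without library 2), 2215 (without library 3) and 2125 (without library 14). With the 5 wild-type libraries fitted alone 847 genes rose and 1485 fell. After quantile normalization 2069 genes rose and 1826 fell. With trends on transcript length and GC content removed 2117 rose and 1615 fell, so which direction held more calls depended on the scaling.

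**Figure D1:**
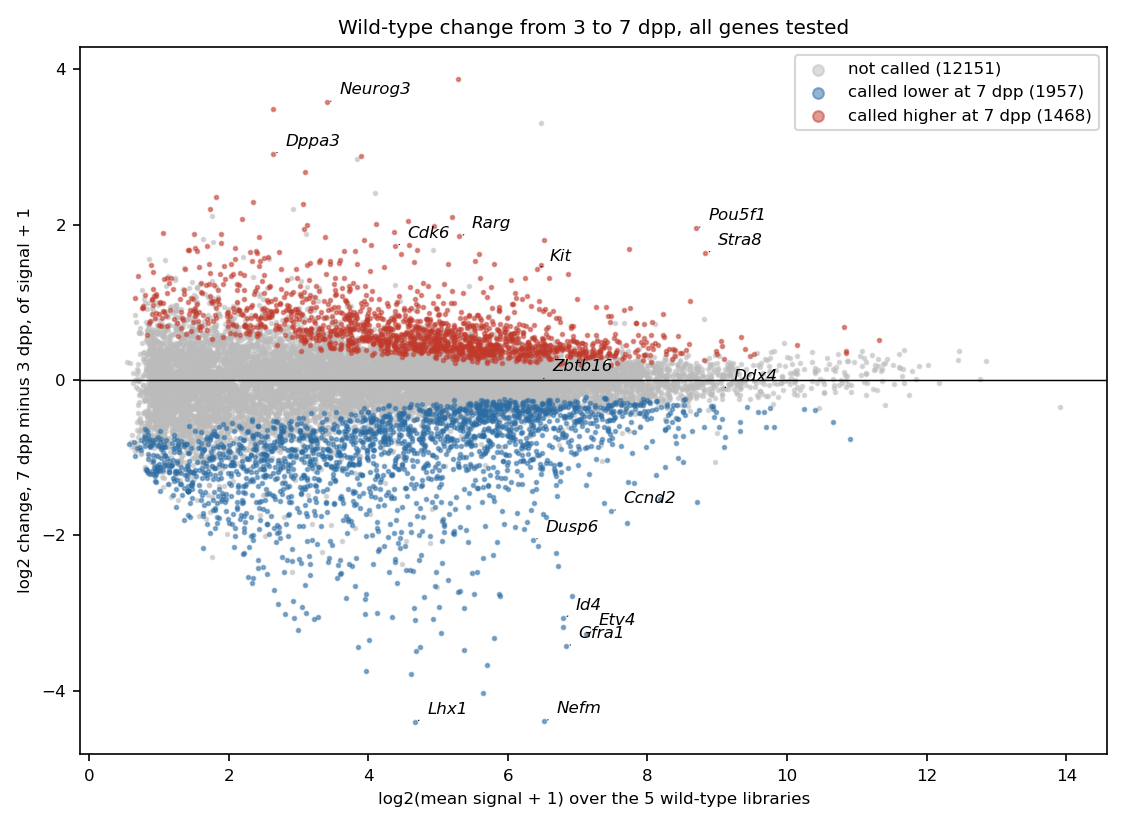
Each point is 1 of the 15576 genes tested; the x axis is the log2 of the mean signal plus 1 over the 5 wild-type libraries and the y axis the log2 change of signal plus 1 from 3 to 7 dpp. The 1957 genes called lower (blue) reach -4.40 at Lhx1, and the highest named gene among the 1468 called higher (red) is Neurog3 at 3.58.

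The upstream sequences of 4 genes that stand for the main movements are shown here, 2 that fell (Id4, a stem cell gene, and Dusp6, a target of ERK signalling) and 2 that rose (Neurog3, a progenitor gene, and Crabp1, which encodes a retinoic acid binding protein). Each run is the 250 bases before the RefSeq start, 5′ to 3′ on the gene's own strand, in build GRCm38.p6. Capitals mark every match, on either strand, of 7 motifs, which are the GC box GGGCGG, the CCAAT box CCAAT, the TATA box TATAAA, the E-boxes CAGCTG and CACGTG, the nuclear receptor half-site AGGTCA and the ETS core CCGGAA.
Id4 (chr13:48260866-48261115, plus strand): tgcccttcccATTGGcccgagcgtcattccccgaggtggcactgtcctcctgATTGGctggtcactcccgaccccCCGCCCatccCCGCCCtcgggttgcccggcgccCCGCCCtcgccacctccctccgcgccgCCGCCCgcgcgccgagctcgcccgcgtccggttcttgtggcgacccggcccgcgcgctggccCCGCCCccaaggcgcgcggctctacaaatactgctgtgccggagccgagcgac
Dusp6 (chr10:99262981-99263230, plus strand): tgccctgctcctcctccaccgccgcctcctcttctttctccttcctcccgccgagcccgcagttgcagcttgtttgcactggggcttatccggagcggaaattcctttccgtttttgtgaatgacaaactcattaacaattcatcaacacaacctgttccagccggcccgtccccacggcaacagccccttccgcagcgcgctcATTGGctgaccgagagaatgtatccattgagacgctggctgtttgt
Neurog3 (chr10:62132840-62133089, plus strand): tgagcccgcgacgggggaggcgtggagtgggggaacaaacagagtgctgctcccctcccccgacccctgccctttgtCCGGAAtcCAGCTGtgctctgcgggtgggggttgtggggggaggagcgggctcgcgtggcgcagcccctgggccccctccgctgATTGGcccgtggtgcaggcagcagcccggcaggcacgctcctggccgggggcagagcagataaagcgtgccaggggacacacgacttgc
Crabp1 (chr9:54764498-54764747, plus strand): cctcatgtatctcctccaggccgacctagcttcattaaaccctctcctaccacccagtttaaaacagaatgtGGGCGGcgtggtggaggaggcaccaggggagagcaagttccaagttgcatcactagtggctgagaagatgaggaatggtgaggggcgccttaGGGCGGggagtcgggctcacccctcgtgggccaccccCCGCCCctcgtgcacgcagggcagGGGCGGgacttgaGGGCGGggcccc
The Id4 window held 5 GC boxes and 2 CCAAT boxes (75.6% GC), and the Crabp1 window 5 GC boxes (63.6% GC). The Neurog3 window held 1 CAGCTG, 1 ETS core and 1 CCAAT box, and the Dusp6 window 1 CCAAT box and none of the other motifs. RefSeq windows were found for 10893 of the genes tested, 485 of those at least 2-fold lower and 148 of those at least 2-fold higher. The GC box was in 59.1% of the windows of genes tested, in 58.1% of those of the lower and in 63.5% of those of the higher genes. The CCAAT box was in 36.7%, 33.0% and 31.1%, the TATA box in 6.3%, 7.8% and 8.8%, and the nuclear receptor half-site in 10.7%, 9.7% and 11.5% of the same 3 sets. CAGCTG was in 11.7%, 11.8% and 10.8%, and CACGTG in 8.6%, 6.0% and 10.8%. The ETS core was in 21.5% of the windows of genes tested, 12.8% of those of the lower and 9.5% of those of the higher genes. These shares are descriptions of letters in a window, with no test. Over all 27025 windows, 1 per gene, they were 32.9% for the GC box, 34.5% for the CCAAT box, 13.0% for the TATA box, 12.8% and 6.0% for the E-boxes, 13.8% for the half-site and 12.2% for the ETS core.

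Stem cell transcripts fell. Of the 20 genes of the spermatogonial stem cell list, 15 were lower and 0 higher at 7 dpp, against 12.6% and 9.42% of all genes. The median log2 change was -2.24. This list and those below were chosen with earlier results of these data known, so their counts are descriptions and not tests. Gfra1 (chromosome 19, 58235604 to 58455909, mm10, minus strand), which encodes the GDNF co-receptor, had a signal of 169, 212 and 154 at 3 dpp and of 12.8 and 18.7 at 7 dpp. Its mean went from 178 ± 30.5 (SD, n = 3) to 15.8 ± 4.22 (n = 2), 11.3-fold lower, and the groups did not overlap (log2 change -3.43 ± 0.53, limma adjusted p = 0.000942). Ret, its signalling partner, was 154, 171 and 141 and then 25.0 and 32.6 (-2.40 ± 0.35, adjusted p = 0.000698). All 3 libraries of 3 dpp lay far above both of 7 dpp.

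Several transcription regulators of the stem cell list also fell. Id4 (chromosome 13, 48261228 to 48266026, plus strand), an inhibitor of DNA binding that marks stem cells, was 178, 185 and 148 at 3 dpp and 17.4 and 21.5 at 7 dpp (-3.07 ± 0.36, adjusted p = 0.000255). Etv4, an ETS factor, was 218, 261 and 170 and then 16.9 and 26.8 (-3.26 ± 0.53). The lowest log2 change of any named gene was that of Lhx1, a LIM homeobox factor induced by GDNF, at 39.7, 56.7 and 23.6 and then 0.662 and 1.02 (-4.40 ± 0.51, adjusted p = 0.000255). Library 15 had the lowest 3 dpp value of each of these genes. Eomes, a T-box factor of a stem cell subset, was 6.76, 10.7 and 4.67 and then 0.321 and 0.74. Plvap, a membrane protein reported on early spermatogonia, was 22.2, 26.6 and 19.5 and then 2.69 and 2.29 (-2.76 ± 0.28). Among members chosen after their values were seen, Etv5 (-3.17 ± 0.57), T (-3.01 ± 0.46), Egr2 (-2.73 ± 0.35), Bcl6b (-2.08 ± 0.30), Tspan8 (-1.55 ± 0.26), Pou3f1 (-1.04 ± 0.22) and Pax7 (-0.97 ± 0.21) fell as well.

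5 members of the stem cell list were not called. Zbtb16 encodes PLZF, a repressor found in all undifferentiated spermatogonia. It was 89.2, 79.6 and 91.0 at 3 dpp and 78.5 and 95.7 at 7 dpp, so the groups overlapped (0.00 ± 0.16, adjusted p = 0.99). Nanos2, an RNA-binding repressor of differentiation, was 7.67, 7.04 and 9.16 and then 2.98 and 6.21 (-0.73 ± 0.36, adjusted p = 0.168). The other three were Foxo1 (-0.05 ± 0.12), Shisa6 (-0.08 ± 0.25) and Utf1 (0.13 ± 0.38), the last 3 values chosen after they were seen. Without library 2 the list had 13 lower members, and without each of the other 4 libraries it had 15.

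**Figure D2:**
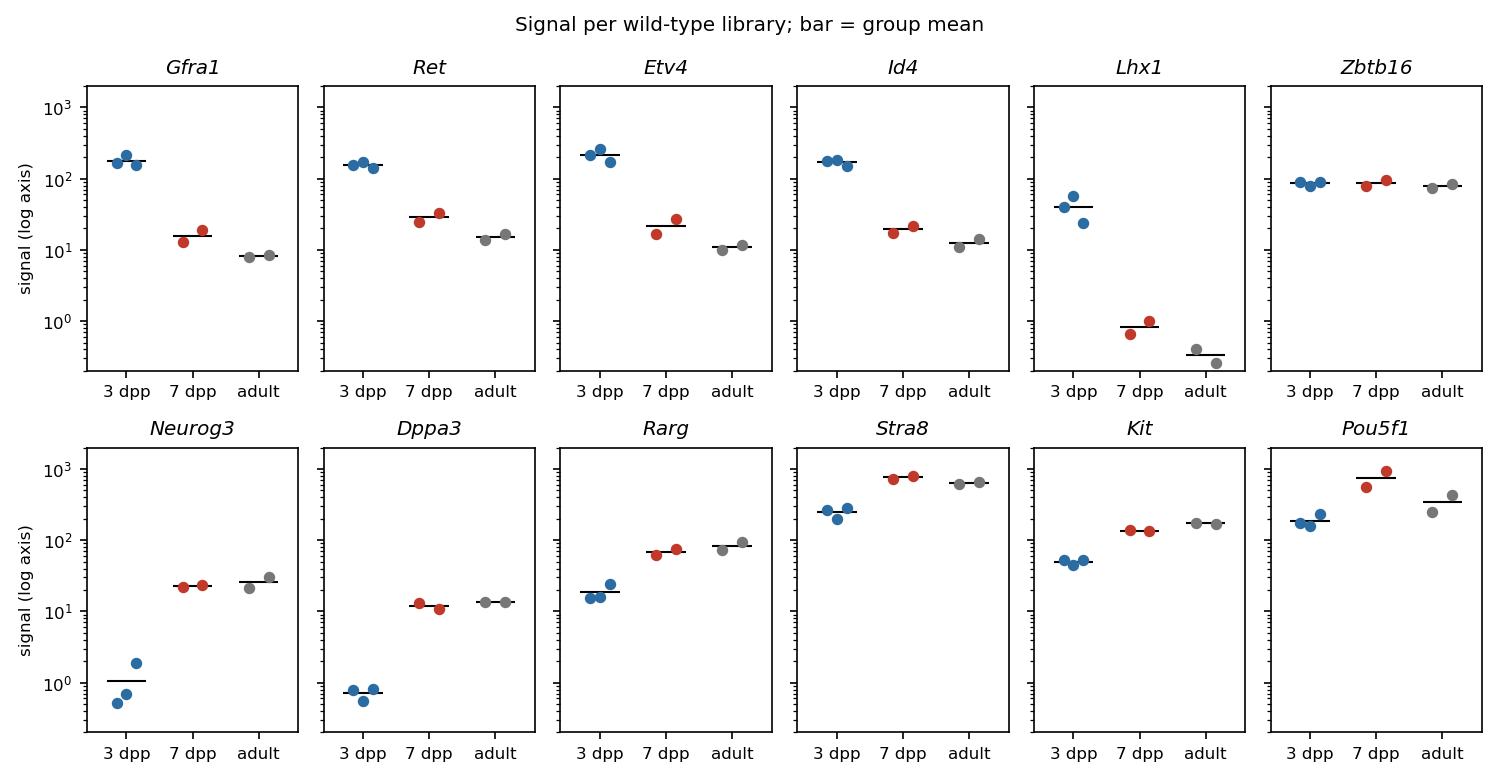
Signal (log axis) of 12 genes in each wild-type library at 3 dpp (blue), 7 dpp (red) and in adults (grey), with the group mean as a bar. Gfra1, Ret, Etv4, Id4 and Lhx1 drop between 3 and 7 dpp, Zbtb16 stays between 78.5 and 95.7 at both ages, and Neurog3, Dppa3, Rarg, Stra8, Kit and Pou5f1 are higher at 7 dpp.

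Receptors of other niche signals changed in both directions. Of 21 niche signal receptors tested, 4 rose and 5 fell (median log2 change -0.06), a share called of 42.9% against 22.0% of all genes. The higher count was 1 without library 14 and 2 without library 2, 3 or 15. Kit, the receptor for stem cell factor, rose from 52.7, 45.2 and 52.5 to 138 and 135 (1.43 ± 0.15, limma adjusted p = 0.000201), while Cxcr4, the receptor of the chemokine CXCL12, fell from 26.0, 29.0 and 23.6 to 9.46 and 7.49 (-1.52 ± 0.23). The receptors of fibroblast growth factor Fgfr1 (0.05 ± 0.15) and Fgfr2 (-0.06 ± 0.17), chosen after their values were seen, were not called.

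Feedback targets of ERK signalling fell nearly as far as the stem cell genes. Of 14 tested, 11 were lower and 0 higher (median log2 change -1.76), a share called of 78.6% against 22.0% of all genes. Etv4 and Etv5 are in both lists. Dusp6, a phosphatase of ERK, was 121, 122 and 108 at 3 dpp and 30.9 and 24.0 at 7 dpp (-2.06 ± 0.27, adjusted p = 0.000391). Spry1, an inhibitor of receptor tyrosine kinase signalling, was 32.1, 28.8 and 20.2 and then 7.00 and 6.29 (-1.85 ± 0.26). In both genes every 3 dpp library lay above every 7 dpp library, as in 26.0% of all genes tested. Phlda1 fell from 25.2, 29.4 and 14.3 to 1.53 and 2.21 (-3.01 ± 0.42), and the cyclin gene Ccnd1 from 142, 165 and 113 to 61.9 and 50.1 (-1.30 ± 0.20). Immediate early genes, which respond to ERK and also to tissue dissociation, went the same way in part: of 18 tested, 7 fell and 2 rose (median -0.90). Egr3 fell from 25.3, 26.4 and 16.1 to 2.43 and 2.11 (-2.82 ± 0.29), and Egr1 from 431, 361 and 288 to 157 and 147 (-1.22 ± 0.21). The 2 that rose were the heat shock genes Hspa1a and Hspa1b, named after their values were seen. Counts without single libraries ran from 10 to 11 lower for the ERK list and from 4 to 7 lower for the immediate early list, with 4 without library 2. The 2 heat shock genes were not called without library 14, nor with the 5 wild-type libraries alone or the 10 libraries of 3 and 7 dpp. Without library 13, 1 of them was called.

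In the progenitor list 5 of 12 tested genes rose and 2 fell (median log2 change 0.48), and in the list of differentiating spermatogonia 8 of 12 rose and 1 fell (0.73). Their shares called were 58.3% and 75.0%, against 22.0% of all genes. Neurog3 (chromosome 10, 62133090 to 62134763, plus strand), a bHLH factor of progenitors, was 0.522, 0.702 and 1.91 at 3 dpp and 21.7 and 23.1 at 7 dpp. It went from near 1 to above 20 in both 7 dpp libraries, and library 15 had the highest 3 dpp value (3.58 ± 0.42, limma adjusted p = 0.000255). Rarg, the retinoic acid receptor of progenitors, rose from 15.4, 15.8 and 24.6 to 62.2 and 74.6 (1.85 ± 0.25, adjusted p = 0.000487). Upp1, a uridine phosphorylase, rose from 11.0, 9.87 and 19.2 to 44.6 and 64.7 (1.98 ± 0.36), and Ddit4, an inhibitor of mTORC1, from 23.4, 26.3 and 26.0 to 72.3 and 77.2 (1.53 ± 0.30). Sox3, chosen after its values were seen, was 118, 51.8 and 196 and then 299.8 and 397 (1.69 ± 0.39). Cdh1, the gene of E-cadherin on undifferentiated spermatogonia, went the other way, from 33.7, 48.7 and 31.4 to 5.05 and 8.66 (-2.32 ± 0.27). Nanos3, an RNA-binding protein of progenitors, was 47.3, 36.5 and 71.7 and then 57.3 and 103, with overlap between the ages (0.61 ± 0.30, adjusted p = 0.17). Without library 15, 8 progenitor genes rose and 2 fell, and without library 3, 4 rose and 2 fell with a median of 0.217.

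Stra8 (chromosome 6, 34920163 to 34939344, plus strand), a gene induced by retinoic acid before meiosis, was 268, 195 and 280 at 3 dpp and 727 and 798 at 7 dpp. Its mean rose from 248 to 762 without overlap (1.63 ± 0.18, limma adjusted p = 0.000251). Sohlh1, a bHLH factor of differentiation, rose from 167, 149.9 and 156 to 281 and 321 (0.93 ± 0.09, adjusted p = 0.000155). Dnmt3b, a de novo DNA methyltransferase, rose from 57.5, 57.5 and 67.5 to 123 and 125 (1.02 ± 0.13). Rises were also called for Sohlh2, Dmrtb1, Esx1 and Rec8, chosen after their values were seen (0.49 to 1.31). The member that fell was Ccnd2, the cyclin D2 gene, from 252, 272 and 210.4 to 80.7 and 69.4 (-1.69 ± 0.19, adjusted p = 0.000255). Without library 14, 7 genes of the differentiating list rose. Its median was 0.7 to 0.806 when single libraries were left out.

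In the retinoic acid pathway 6 of 20 tested genes rose and 2 fell (median log2 change 0.19), and Rarg and Stra8 are among the 6. Together 40.0% were called, against 22.0% of all genes. Crabp1, the retinoic acid binding protein shown above, rose from 264, 268 and 297 to 521 and 606 (1.02 ± 0.15, adjusted p = 0.000666). Dhrs3, a reductase that lowers retinal, fell from 8.89, 11.0 and 5.04 to 1.31 and 0.911 (-2.09 ± 0.37, adjusted p = 0.00183). The receptor gene Rara was 41.2, 40.9 and 42.3 and then 40.6 and 47.6 (0.08 ± 0.10). Rxrb (0.62 ± 0.11) and Aldh1a2 (0.78 ± 0.22) rose and Aldh1a3 (-1.15 ± 0.29) fell, and these 3 and Rara were chosen after their values were seen. The retinoic acid degrading Cyp26 genes were not called, at 0.23 ± 0.30 for Cyp26a1 and -0.14 ± 0.29 for Cyp26b1. Without library 14, 5 genes of the pathway rose and 2 fell. The median of the pathway was 0.111 to 0.265 when single libraries were left out.

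Pluripotency-associated genes split. Of 15 tested, 3 rose and 5 fell (median log2 change -0.28), and the lower count was 3 without library 2 or 3. Pou5f1 (chromosome 17, 35506018 to 35510772, plus strand), the OCT4 gene whose promoter drives the sorting marker, was 173, 158 and 234 at 3 dpp and 550.3 and 945 at 7 dpp. Both 7 dpp libraries were more than the highest 3 dpp library, and the 7 dpp libraries differed widely from each other (1.95 ± 0.38, limma adjusted p = 0.00308). Dppa3, the Stella gene, was 0.777, 0.551 and 0.815 and then 13.2 and 10.6 (2.91 ± 0.41, adjusted p = 0.000553). Dppa4, a chromatin protein of early germ cells, fell from 104, 115 and 101 to 53.2 and 55.4 (-0.96 ± 0.14), and Esrrb, an orphan nuclear receptor, from 5.93, 8.97 and 5.28 to 1.54 and 2.23 (-1.40 ± 0.23). Tfcp2l1 (0.81 ± 0.19) rose, and Sox2 (-1.84 ± 0.37), Dppa2 (-1.54 ± 0.39) and Prdm1 (-0.70 ± 0.20) fell, as members chosen after their values were seen.

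Markers of prospermatogonia, the stage before 3 dpp, showed no shared direction, with 3 of 12 higher and 2 lower (median -0.10). Of these markers 41.7% were called, against 22.0% of all genes. The higher count was 1 without library 3. Elmo1, an engulfment and motility protein, fell from 38.4, 55.7 and 32.6 to 16.5 and 14.1 (-1.37 ± 0.21), and Tex101, a surface protein of germ cells, from 339, 406 and 313 to 201 and 253 (-0.64 ± 0.17). Dnd1, an RNA-binding protein needed for germ cell survival, rose from 101, 85.1 and 90.7 to 120.4 and 129 (0.43 ± 0.10). Dppa3, given above, is also in this list and rose by more (2.91 ± 0.41). Tex101 was not called without library 2 or 14, and Dnd1 not without library 3. Dnmt3l, the cofactor of de novo methylation, was low at both ages at 5.55, 9.29 and 4.47 and then 2.52 and 5.00 (-0.64 ± 0.37, adjusted p = 0.235).

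In the piRNA pathway, which silences transposons in germ cells, 7 of 22 genes tested rose, 0 fell and 15 were not called (median log2 change 0.15), against 9.42% and 12.6% of all genes. Henmt1, the piRNA methyltransferase, rose from 21.9, 24.3 and 28.7 to 43.3 and 58.9 (1.00 ± 0.16), and Pld6, a mitochondrial nuclease of piRNA production, from 40.7, 37.7 and 50.6 to 69.4 and 72.1 (0.72 ± 0.12). Piwil2, a PIWI protein, rose from 209, 210.1 and 199.8 to 282 and 296 (0.48 ± 0.09), and Tdrd1, a Tudor protein of the same granules, from 100, 113 and 114 to 138 and 146 (0.39 ± 0.08). The count was 3 without library 3, where Tdrd1 lost its call, and 4 with the 5 wild-type libraries fitted alone. In the list of meiotic prophase genes 5 of 32 rose and 2 fell (median 0.08), a share called of 21.9% against 22.0% of all genes. The higher count was 2 without library 3 and 3 without library 2, 13 or 14. Sycp3, a protein of the synaptonemal complex, rose from 188, 179.6 and 217 to 297 and 348 (0.72 ± 0.12), and Tex14, of the intercellular bridge, from 93.1, 92.0 and 101 to 134 and 127 (0.45 ± 0.07). Syce3, a central element protein, fell from 119, 129 and 102 to 65.5 and 86.4 (-0.62 ± 0.12). None of 12 spermatid genes was called.

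RNA-binding regulators of germ cells moved in both directions, with 3 of 19 higher and 6 lower (median log2 change -0.11), or 47.4% called. Without library 2 both counts were 1, with Igf2bp2 and Rbm46 not called, and without library 14 they were 2 and 3. Igf2bp1, an mRNA-binding protein of fetal tissues, fell from 164, 168 and 135 to 78.0 and 93.9 (-0.85 ± 0.14), and Igf2bp2 from 29.0, 34.4 and 25.2 to 12.2 and 19.1 (-0.90 ± 0.19). Rbm46, an RNA-binding protein of germ cells, rose from 91.4, 81.3 and 115 to 167 and 142 (0.69 ± 0.14). In the DNA methylation machinery 2 of 14 rose and 4 fell (median 0.01), or 42.9% called. The lower count was 1 without library 2 or 14 and 2 without library 3 or 13. Dnmt3b, above, and Tet3, a methylcytosine dioxygenase, rose, the latter from 15.3, 13.8 and 13.3 to 31.6 and 27.3 (1.01 ± 0.15). Uhrf1, the partner of the maintenance methyltransferase, fell from 342, 341 and 284 to 178 and 195 (-0.78 ± 0.14), and Dnmt3a from 65.8, 67.6 and 58.8 to 49.1 and 52.3 (-0.33 ± 0.08). Dnmt3b thus lay near the level of Dnmt3a at 3 dpp and above it in both 7 dpp libraries. Among histone methylation enzymes 21.1% were called, against 22.0% of all genes, with 1 of 19 higher and 3 lower: Ehmt2, the G9a gene for H3K9 methylation, went from 233, 188 and 258 to 384 and 431 (0.86 ± 0.13), Ezh1 from 98.1, 109 and 96.0 to 51.9 and 62.7 (-0.81 ± 0.10), Kdm2b from 125, 134 and 116 to 68.4 and 79.1 (-0.75 ± 0.12), and Ezh2 from 60.3, 60.1 and 60.5 to 40.9 and 46.8 (-0.45 ± 0.12).

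Of 22 genes of DNA replication and the G1/S step, 11 fell and 0 rose (median log2 change -0.32). Of 21 mitosis genes 5 fell and 0 rose (-0.22), with 16 not called. Of all genes tested, 12.6% fell and 9.42% rose. The share called of the mitosis list, 23.8%, was near the 22.0% of all genes in either direction. Ccne1, the cyclin E1 gene, fell from 48.8, 54.3 and 44.7 to 22.7 and 21.5 (-1.12 ± 0.11, limma adjusted p = 0.000155), and E2f1, the transcription factor of S-phase genes, from 153, 151 and 152 to 85.2 and 99.5 (-0.72 ± 0.12). Rrm2, a subunit of ribonucleotide reductase, fell from 95.0, 109 and 97.8 to 47.4 and 50.7 (-1.02 ± 0.18), and Mcm10, a replication initiation factor, from 94.6, 80.0 and 93.1 to 45.5 and 53.6 (-0.84 ± 0.14). Mki67, a marker of cycling cells, fell from 132, 139 and 117 to 86.3 and 68.8 (-0.74 ± 0.13), and Cdk1, the mitotic kinase, from 47.6, 50.2 and 49.8 to 33.2 and 30.4 (-0.62 ± 0.13). The count of lower replication genes was 5 without library 2 and 7 without library 13, and that of mitosis genes 2 without library 2 and 3 without library 3 or 14.

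The regulators of G1 changed their relative levels. Of 16 D-type cyclins, CDKs, CDK inhibitors and RB family genes, 6 fell and 2 rose (median log2 change -0.27). All D-type cyclin genes fell, Ccnd1 and Ccnd2 as given above and Ccnd3 from 153, 177 and 129 to 73.6 and 82.1 (-0.96 ± 0.11). Cdkn1a, the p21 inhibitor and a p53 target, fell from 17.0, 28.0 and 14.4 to 2.72 and 3.52 (-2.29 ± 0.27, limma adjusted p = 0.000255). Cdk6, a kinase partner of the D-type cyclins, rose from 10.3, 7.30 and 12.4 to 35.7 and 33.7 (1.72 ± 0.22, adjusted p = 0.000361). Replication-dependent histone transcripts, most of which lack poly(A) tails, were lower for 4 of 16 tested and higher for none (median -0.64). This share, 25.0%, was near the 22.0% called of all genes. Hist1h4b was 1.11, 16.7 and 9.81 at 3 dpp and was listed at 0 in both libraries of 7 dpp, and Hist1h3c was 13.8, 22.9 and 25.2 and then 4.02 and 7.08. Histone genes are close copies of each other, so the counting of reads between them is uncertain, and none of the 4 was called without library 2.

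Adhesion and basement membrane genes were lower, at 13 of 23 tested with 0 higher (median log2 change -0.62), a share called of 56.5% against 22.0% of all genes. Itgb5, an integrin subunit, fell from 117, 117 and 81.7 to 25.9 and 27.7 (-1.91 ± 0.17, limma adjusted p = 0.000155), and Itga3, another, from 22.1, 26.7 and 16.4 to 7.79 and 9.24 (-1.24 ± 0.20). Nid1, the nidogen of basement membranes, fell from 55.3, 68.5 and 34.7 to 12.1 and 12.1 (-1.98 ± 0.26). Itga6, a surface marker used to enrich spermatogonia and chosen after its values were seen, was 74.1, 71.0 and 77.9 and then 47.5 and 43.0 (-0.70 ± 0.17). The count was 6 without library 2 or 14, 7 without library 3 and 8 without library 13. The summed signal of the myoid markers, given above, moved in the same direction, and its part in this result was not tested.

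Imprinted genes, expressed from a single parental copy in somatic cells, fell for 8 of 22 tested and rose for 3 (median log2 change -0.40). Igf2, the insulin-like growth factor 2 gene, fell from 63.9, 104 and 51.1 to 14.0 and 12.9 (-2.29 ± 0.23, limma adjusted p = 0.000155). Its neighbour H19, a noncoding RNA, fell from 131, 155 and 108 to 64.2 and 49.1 (-1.20 ± 0.17). Mest fell from 123, 148 and 103 to 23.7 and 31.6 (-2.13 ± 0.27) and Snrpn from 18.8, 16.3 and 20.5 to 5.98 and 8.89 (-1.23 ± 0.27). The 3 that rose were Grb10 (1.68 ± 0.40), Phlda2 (1.24 ± 0.29) and Ndn (0.62 ± 0.15), named after their values were seen. The lower count was 5 without library 2, and the higher count 1 without library 2 or 3.

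Of the 15 lowest changes, 12 were those of genes not described above. Nefm, a neurofilament subunit, was 160.4, 161 and 119 at 3 dpp and 4.77 and 7.40 at 7 dpp (-4.39 ± 0.64, limma adjusted p = 0.000668). Sez6, a brain membrane protein, was 87.0, 107 and 49.9 and then 4.70 and 5.69 (-3.67 ± 0.51), Nxph4, a neurexophilin, 68.1, 90.5 and 33.7 and then 3.58 and 5.43 (-3.47 ± 0.34), and Ptprn, of secretory granules, 12.0, 15.7 and 6.64 and then 0.02 and 0.60 (-3.21 ± 0.34). Elfn1 (-3.48 ± 0.41), a synaptic adhesion protein, Arhgap9 (-3.74 ± 0.45), a GTPase activator of blood cells, Plaur (-3.44 ± 0.49), the urokinase receptor, and Gsc (-3.35 ± 0.41), the goosecoid homeobox gene, followed. Library 15 was the lowest of its age for each of these genes, which were chosen for having no overlap between the ages. Another 4 of the 15 lowest form overlapping pairs on chromosome 11. Tmc6 (117765988 to 117782198, minus strand) and Tmc8 (117782076 to 117793110, plus strand), transmembrane channel-like genes, fell by 3.32 ± 0.34 and 3.79 ± 0.52 on the log2 scale. Abi3 (95830074 to 95842476, minus strand), an actin regulator, and Gngt2 (95837216 to 95845734, plus strand), a G protein subunit, fell by 3.43 ± 0.44 and 3.26 ± 0.48. Use of strand in the counting is not given in the sources used here, so reads of overlapping partners may not be told apart.

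The highest changes among genes not described above began with Tbx1. This gene, a T-box factor, rose from 2.23, 3.76 and 3.71 to 31.5 and 28.1 (2.88 ± 0.46, limma adjusted p = 0.00105). Lhx8, a LIM homeobox factor known in the mouse oocyte, rose from 1.32, 1.17 and 2.79 to 17.9 and 14.5 (2.68 ± 0.35), Dlx1, a distal-less homeobox factor, from 1.66, 2.46 and 2.92 to 16.8 and 13.2 (2.27 ± 0.35), and Nkx1-1 from 15.4, 10.9 and 18.1 to 53.7 and 79.8 (2.10 ± 0.29). Cldn11, the tight junction claudin of Sertoli cells, rose from 11.8, 7.64 and 8.75 to 55.5 and 30.5 (2.04 ± 0.50, adjusted p = 0.0109), and Shisa8 from 8.39, 6.04 and 5.85 to 37.1 and 24.0 (2.01 ± 0.37). In both genes library 2, which had the higher summed Sertoli signal of the pair (1835 against 1266), also had the higher value, and Cldn11 was not called without it. Dpysl3 (1.95 ± 0.36), Igfbp6 (1.91 ± 0.45), Rln3 (2.00 ± 0.48) and Ccno (1.84 ± 0.28), which encode a cytoskeletal regulator, a binding protein of insulin-like growth factors, the peptide relaxin-3 and an atypical cyclin, complete the 15 highest, and Rln3 and Igfbp6 were not called without library 3.

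Of 68 oxidative phosphorylation genes 4 rose and 4 fell (median log2 change -0.004), and of 76 cytosolic ribosomal protein genes 1 rose and 3 fell (median 0.13). Without library 2 the oxidative phosphorylation counts were 0 and 1, and without library 15 they were 9 and 1. Their shares called were 11.8% and 5.3%, against 22.0% of all genes. Ndufa2, a complex I subunit, rose from 191, 168 and 208 to 283 and 254 (0.50 ± 0.11), and Atp5j, an ATP synthase subunit, fell from 264, 295 and 289.6 to 217 and 197 (-0.45 ± 0.09). Rpl39 fell from 394, 367 and 416 to 129.8 and 142 (-1.52 ± 0.22), but ribosomal protein genes have many pseudogene copies, so its level is uncertain. Without library 15, 11 ribosomal protein genes rose and 3 fell. Ribosome biogenesis (3 of 30 higher, 1 lower), the tricarboxylic acid cycle (3 of 20 higher, 2 lower), and lysosome and autophagy genes (2 of 31 higher, 4 lower) had shares called of 13.3%, 25.0% and 19.4%. Without library 2 the tricarboxylic acid cycle counts were 1 and 0 and the lysosome counts 1 and 0. Without library 14 the tricarboxylic acid cycle counts were 1 and 1 and the lysosome counts 2 and 1. Examples were Polr1c, an RNA polymerase I subunit, at 191, 166 and 227 and then 302 and 276 (0.58 ± 0.10), Suclg2, a succinyl-CoA ligase subunit, with a rise of 0.45 ± 0.08, and Ctsd, a lysosomal protease, with -0.50 ± 0.11.

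Glycolysis genes fell for 7 of 20 tested and rose for none (median log2 change -0.41), a share called of 35.0% against 22.0% of all genes. Hk2, hexokinase 2, fell from 66.4, 71.1 and 48.3 to 31.2 and 32.5 (-0.92 ± 0.15), Aldoa, aldolase A, from 729, 704 and 750.2 to 450.2 and 557 (-0.54 ± 0.11), and Slc2a1, the glucose transporter GLUT1, from 64.0, 75.0 and 68.2 to 28.9 and 49.1 (-0.85 ± 0.19). The count was 1 without library 2, where Aldoa and Slc2a1 lost their calls, and 4 without library 3 or 13. In the mTOR pathway, which couples growth factors to protein synthesis, 2 of 28 rose and 3 fell (median 0.05), and the share called was 17.9%, against 22.0% of all genes. Akt1, the kinase, rose from 75.7, 64.0 and 75.3 to 129 and 130.4 (0.85 ± 0.12), and Pik3ca, the catalytic PI3-kinase subunit, fell from 52.7, 56.0 and 47.8 to 25.5 and 21.9 (-1.11 ± 0.15). Rps6kb2, an S6 kinase, fell as well (-1.13 ± 0.19). Sterol and fatty acid synthesis had 4 of 26 higher (2 without library 14) and 2 lower, a share called of 23.1%, near the 22.0% of all genes. Mvd, of the mevalonate pathway, was at 71.3, 60.4 and 67.8 and then 111 and 138 (0.89 ± 0.12). Elovl6, a fatty acid elongase, was at 45.7, 50.5 and 44.0 and then 10.7 and 13.4 (-1.88 ± 0.25). Of 19 genes of the amino acid stress response 3 rose and 3 fell (31.6% called), among the latter Phgdh, of serine synthesis (-1.0 ± 0.21). None of the 3 lower genes was called without library 2, and 1 was higher without library 3 or 14. Of 14 p53 targets 4 rose (1 without library 13 or 14) and 2 fell, a share called of 42.9%. Gadd45a was at 26.1, 26.6 and 28.4 and then 45.2 and 44.8 (0.71 ± 0.10), beside the fall of Cdkn1a.

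**Figure D3:**
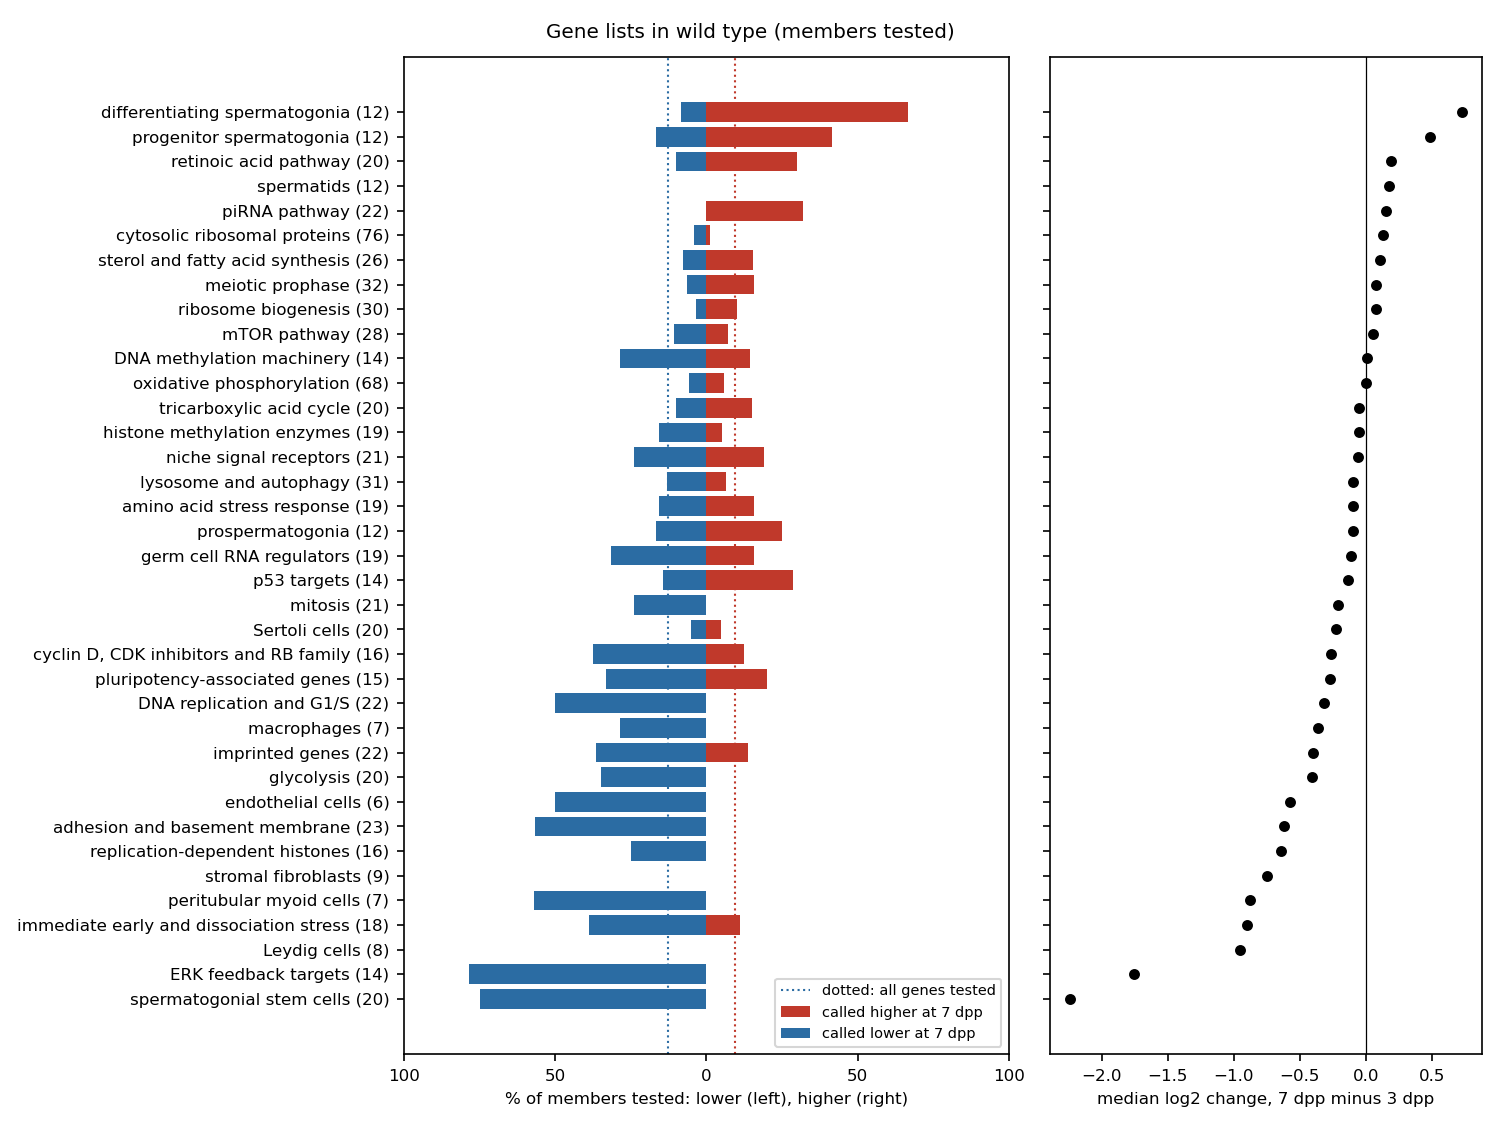
For 37 gene lists (members tested in brackets), the left panel gives the percentage of members called lower (blue) and higher (red) at 7 dpp in wild type, with dotted lines at the 12.6% and 9.42% of all genes tested, and the right panel the median log2 change. Stem cell genes and ERK feedback targets are at -2.24 and -1.76, and differentiating spermatogonia at the other end at 0.73.

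The age change in libraries labelled Akt1s1 null was taken from other libraries than that in wild type. Both changes were tested in the same fit with a shared spread per gene, so their SEs are equal (0.53 for Gfra1). A gene of small spread is thus more readily called in both, and the calls are not independent. Akt1s1, the targeted gene, was 35.2 and 33.4 in 3 dpp libraries labelled null and 39.8, 39.5 and 37.2 in those of 7 dpp, against 49.4 to 52.4 and 54.5 and 72.9 in wild type. Its transcript was thus lower than in wild type but far from absent, at means of 34.3 and 38.8 against 50.9 and 63.7. The level of this transcript does not settle the genotype, so directions drawn from these libraries rest on the label. The age change of Akt1s1 in wild type was not called (0.30 ± 0.10, limma adjusted p = 0.0527). In the libraries labelled null 2982 genes rose (19.1%) and 2457 fell (15.8%), which was 34.9% together. Most of the called genes had the same sign of change in both. Of the 1468 genes higher in wild type, 876 (59.7%) were also called higher in the libraries labelled null and 17 lower, and of the 1957 lower genes 1073 (54.8%) were called lower and 35 higher. The sign of the change was the same for 89.7% and 88.3% of them, against 67.9% of all genes tested. Of the genes with at least 2-fold changes, 166 of 211 and 543 of 757 were called in the same direction and 0 in the opposite.

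Gfra1 was 164 and 192 in 3 dpp libraries labelled null and 11.8, 89.7 and 45.4 in those of 7 dpp, so libraries 5 and 6 of these lay above both wild-type libraries of that age and library 4 below them. Neurog3 had the reverse order in the same 3 libraries at 36.9, 10.7 and 25.2. The mean log2 level of the stem cell list was 5.33, 5.55 and 5.01 in wild type at 3 dpp, 3.23 and 3.50 at 7 dpp, and 3.43, 4.57 and 4.26 in the 7 dpp libraries labelled null. The test of the difference in age change between genotypes was not passed by Gfra1 (wild type minus labelled null -1.19 ± 0.75, adjusted p = 0.376), Neurog3 (0.17 ± 0.60, adjusted p = 0.893) or Stra8 (0.41 ± 0.26, adjusted p = 0.374), and a p that misses the threshold does not show that the genotypes change alike.

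**Figure D4:**
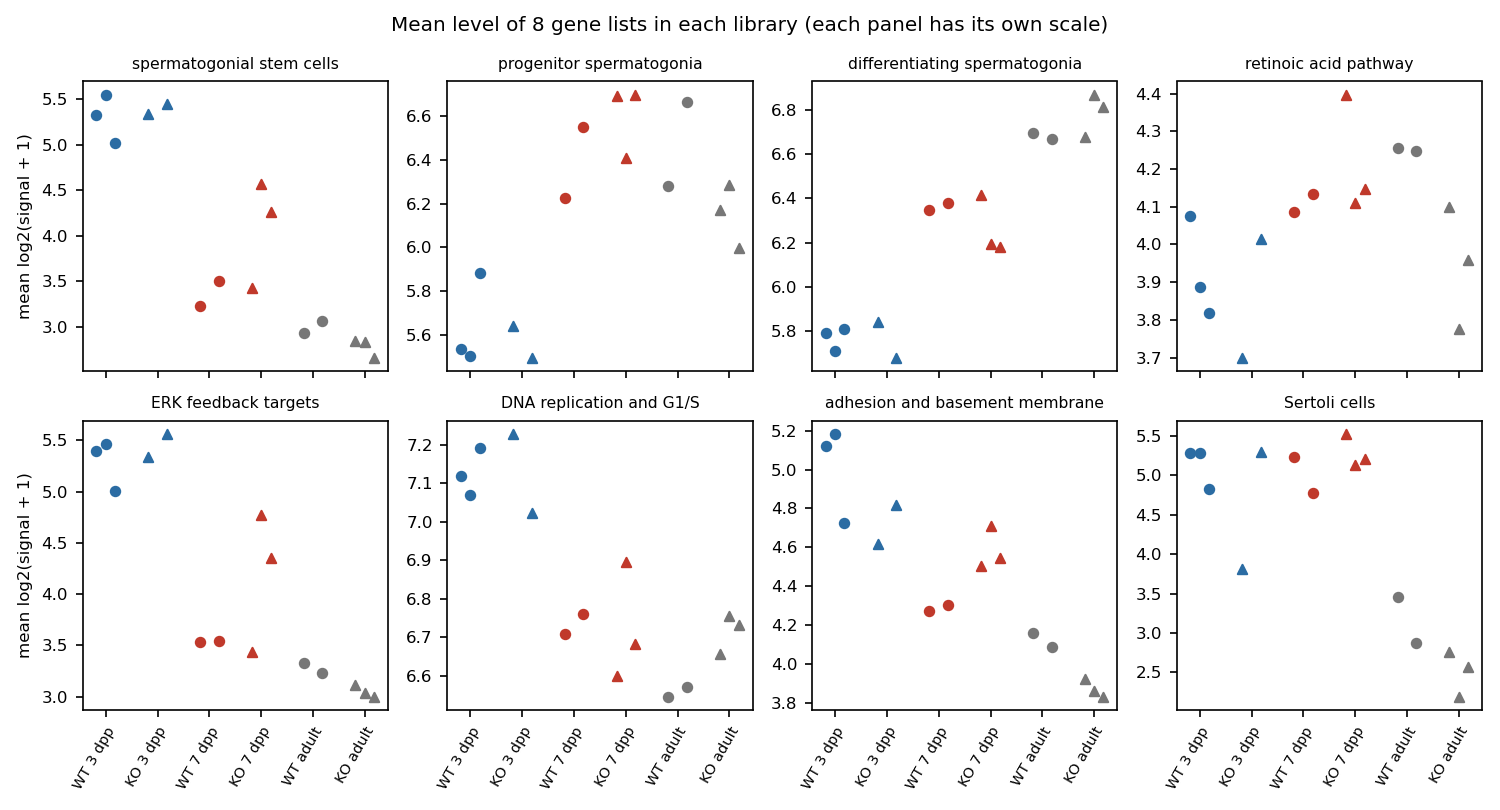
Mean log2 of signal plus 1 over the tested members of 8 gene lists in each library, wild type as circles and libraries labelled Akt1s1 null as triangles, at 3 dpp (blue), 7 dpp (red) and in adults (grey); scales differ between panels. The stem cell list is at 5.01 to 5.55 in wild type at 3 dpp and 3.23 and 3.50 at 7 dpp, while Sertoli markers span 4.78 to 5.29 across both ages.

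The test of the difference called 416 genes (2.67%), 115 with the higher change in wild type (0.738%) and 301 with the lower (1.93%). Of the 416, 53 were among the genes higher and 88 among those lower at 7 dpp in wild type. It called oxidative phosphorylation genes in 4 of 68 cases. In that list 0 rose and 42 fell in the libraries labelled null, against 4 and 4 in wild type. In the ribosomal protein list 0 rose and 38 fell, against 1 and 3 in wild type. Libraries 16 and 18 had total signals of 1183294 and 1178330, against 969003 to 1086085 in the other 3 and 7 dpp libraries. Rescaled to the same total, 1382 of all genes fell in the libraries labelled null instead of 2457. The part of these totals in the list counts was not tested. Mki67 fell in wild type (-0.74 ± 0.13) and was 85.9 and 77.0 and then 80.5, 104 and 97.2 in libraries labelled null (0.20 ± 0.13). The mean log2 level of Sertoli markers was 3.81 in library 16, labelled null, and 4.78 to 5.53 in the other 3 and 7 dpp libraries of both genotypes. Zbtb16 was not called in wild type and rose in libraries labelled null from 77.0 and 51.5 to 106, 128 and 141 (0.97 ± 0.16). With the 10 libraries of these 2 ages alone the difference was called for 5 genes, and without wild-type library 3 for 25.

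**Figure D5:**
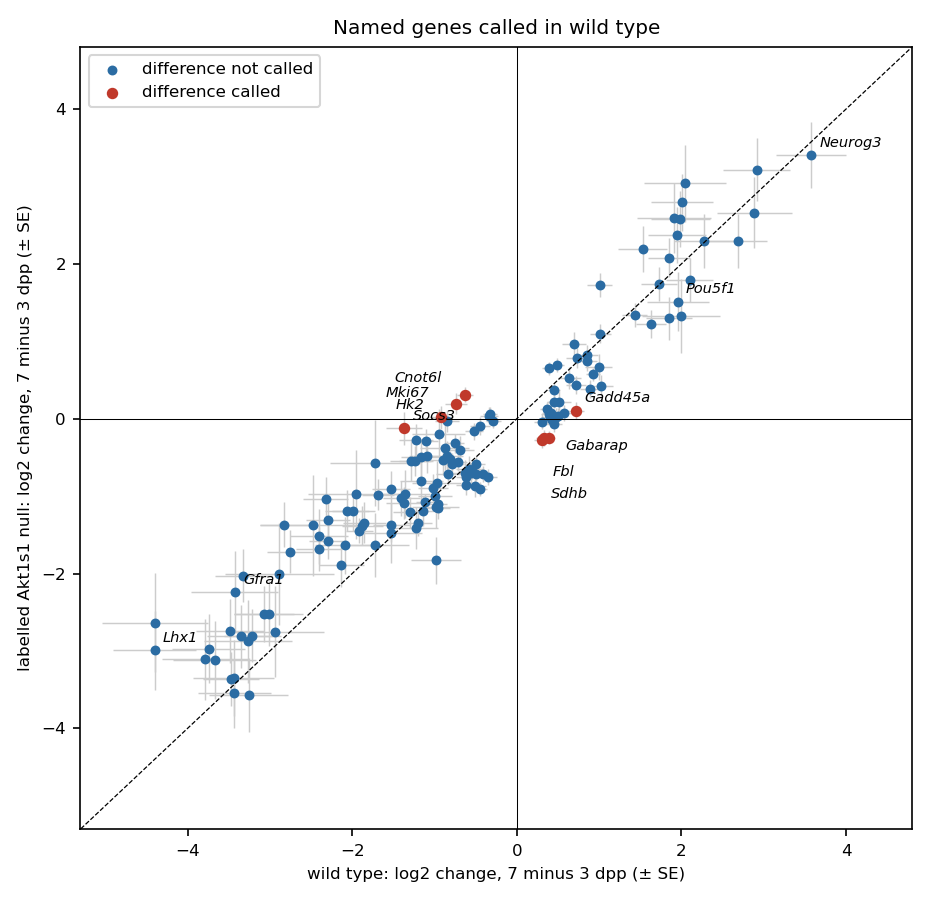
The log2 change from 3 to 7 dpp in wild type (x axis) and in libraries labelled Akt1s1 null (y axis), each with its SE, for the 145 named genes called in wild type; the dashed line marks equal change. Genes of large change lie in the same quadrant in both genotypes, and the 8 whose difference was called (red) have a small change in the libraries labelled null, between -0.28 for Sdhb and 0.31 for Cnot6l.

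The adult wild-type libraries, sorted by the same transgene, put the 7 dpp levels in context, with no test since they are compared with the same 7 dpp libraries. Gfra1 was 8.01 and 8.43 and Id4 11.1 and 14.2 in adults, below both 7 dpp libraries. Neurog3 was 21.5 and 30.1, Kit 176 and 168 and Stra8 616 and 658, near the 7 dpp values. The adult libraries also held other cells: the summed signal of 12 spermatid genes was 12584 and 5763 in them, against 85.6 and 106 at 7 dpp, and that of the Leydig markers 5465 and 3844, against 132 and 152. The part of these cells in the adult values was not tested. Tbx1 (143 and 146), Lhx8 (37.7 and 36.4) and Dlx1 (32.6 and 33.0) were higher than at 7 dpp. Fcer1g, which fell to 4.25 and 3.35 at 7 dpp, was 87.9 and 29.6 in adults, where the summed signal of the macrophage markers was 1495 and 476.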

How the data were processed

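RNA was sequenced from GFP-positive testis cells of 15 libraries, of which the 5 wild-type libraries of 3 and 7 dpp carry the comparison. Each deposited file holds 1 signal value per gene. The submitters' processing notes name Trim Galore, kallisto, DESeq2 and the genome build mm10 and give no versions or settings. No read counts are used here, so the depth is unknown and no counting interval is given. Annotation and upstream windows came from GENCODE M21 and RefSeq for the same build.

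Genes that reached a signal of 1 in 2 or more of the 5 libraries were tested on log2(signal + 1), a scale that understates the change of low genes. limma 3.58.1 (R 4.3.3, mean-variance trend) fitted 6 group means over all 15 libraries. Contrasts were 7 minus 3 dpp in wild type, the same in the libraries labelled Akt1s1 null, and their difference, two-sided, with Benjamini-Hochberg adjustment over all genes and a threshold of 0.05. Values after ± are SE unless marked SD. Simulated data were made for 15576 genes. The wild-type contrast recovered 87% of 100 genes changed by 1 on the log2 scale and 99% of 100 changed by 2. Of its 198 calls, 12 were unchanged genes. Changed genes were drawn only from those with a 3 dpp log2 level above 3, and noise was normal with the spreads of the fit. The recovery therefore does not cover genes of lower level, nor data with as many changed genes as were called here.

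Named genes were 12 marker genes, the 15 highest and 15 lowest called changes with a mean signal of at least 5 and no overlap, up to 4 genes of smallest p in each of 38 lists, and 6 genes for the difference between genotypes. The members and lists were chosen with earlier results of these data known. Alternatives changed the libraries fitted, filter, pseudocount, scaling, trend and length or GC correction, and left out each library.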

Additional observations from a re-analysis of the deposited data

Results flagged for a closer look

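For 14 named genes the age change differed between wild type and the libraries labelled Akt1s1 null by the limma test of the difference itself, given here as the wild-type log2 change minus that in the libraries labelled null. It was lower in wild type for Zbtb16 (-0.97 ± 0.23, adjusted p = 0.0452), Mki67 (-0.93 ± 0.19, adjusted p = 0.0292), Hk2 (-0.94 ± 0.21, adjusted p = 0.038) and Socs3, a feedback inhibitor of cytokine signalling (-1.25 ± 0.30, adjusted p = 0.0487). It was higher for Sdhb, a succinate dehydrogenase subunit (0.59 ± 0.14, adjusted p = 0.0448), Fbl, the nucleolar methyltransferase fibrillarin (0.58 ± 0.14, adjusted p = 0.0461), Gabarap, an autophagy protein (0.63 ± 0.11, adjusted p = 0.021), and Gadd45a (0.61 ± 0.15, adjusted p = 0.0485). The genes of smallest p were Amd2 (-4.92 ± 0.44, adjusted p = 0.000709), Plxna1 (-1.23 ± 0.15, adjusted p = 0.00549), Atp7a (-1.11 ± 0.14, adjusted p = 0.00576), Lyrm4 (0.98 ± 0.13, adjusted p = 0.00727), Cnot6l (-0.94 ± 0.13, adjusted p = 0.0139) and Rc3h1 (-1.02 ± 0.15, adjusted p = 0.0139). Amd2 was listed at 0 in both 3 dpp libraries labelled null, and reads of Amd2 and its close copy Amd1 may not be told apart. The number of genes called for this difference depends strongly on the libraries and settings, as given under the processing.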

How the results depend on the processing

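The count of genes called in wild type was 2332 to 3895 over the other settings and 1588 (without library 2) to 3843 (without library 15) when single libraries were left out, also 2215 without library 3 and 2125 without library 14. The higher share of calls was 42.9%, 53.1% after quantile normalization and 56.7% with length and GC trends removed. Of 145 named genes called, 0 reversed. The number that lost their call was 45 without library 2, 23 without library 3, 21 without library 14, 15 without library 13 and 1 without library 15, and 1 to 18 under the other settings. The count in libraries labelled null was 3579 (without library 18) to 5570 without single libraries. Rescaled to the same total it was 6304, of which 4922 were higher. The count for the difference between genotypes was 5 with the 10 libraries of 3 and 7 dpp, 1675 after rescaling, 63 with no mean-variance trend, 54 with length and GC trends removed and 25 (without wild-type library 3) to 1094 (without library 15) without single libraries, 277 without library 2, 58 without library 13, 37 without library 14 or library 6, 715 without library 16 and 162 without library 18. The cause was not tested. Some log2 changes, none of them called, took the other sign when single libraries were left out, with ranges of -0.137 to 0.145 for Zbtb16, -1.335 to 0.006 for Star, -0.327 to 0.032 for Egfl7, -0.802 to 0.161 for Alas2, -0.855 to 1.036 for Hba-a1, -1.042 to 1.121 for Hbb-b1, -0.669 to 0.173 for Amd2 and -0.111 to 0.074 for Plxna1. With a pseudocount of 0.1 Hbb-b1 was at -0.057. No paired analysis was possible because the groups share no replicate number. With 2 libraries at 7 dpp, each left-out fit takes the lone library to vary like the other groups.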

Other observations

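Of the genes at least 2-fold lower at 7 dpp, 702 had a position in the annotation, and 47 pairs of them lay within 10 kb of each other. Of these pairs 11 overlapped, among them Abi3 with Gngt2 and Tmc6 with Tmc8. Pairs were not counted among all genes tested, so these numbers do not show whether the lower genes lie closer together than others.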
